A study of Mus musculus with 14 samples.

Results

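The 10 genes described here encode muscle proteins of the stretch-sensing filament system: the muscle ankyrin repeat proteins Ankrd1, Ankrd2 and Ankrd23, the Xin proteins Xirp1 and Xirp2, the LIM-domain proteins Fhl1, Fhl2 and Csrp3, the actin regulator Enah and the intermediate filament protein Des. They were chosen by name, with earlier results of these data known. They are the rows of these symbols in the gene count tables of 14 mouse hearts, and make up 10 of the 51912 genes counted. All 10 passed the filter on low counts. Ankrd2 passed it only through TAC libraries, with up to 51 reads there and at most 11 reads in a sham library. The libraries compare hearts of Clk3 KO mice and WT mice on the C57BL/6J background after TAC (transverse aortic constriction, which narrows the aorta and raises the pressure load on the left ventricle) or sham surgery. Clk3 encodes a kinase that phosphorylates splicing factors. There were 4 libraries of Clk3 KO hearts after TAC, 2 of WT hearts after TAC, 4 of Clk3 KO sham hearts and 4 of WT sham hearts. All 6 TAC libraries came from mice aged 10 weeks, and each sham group held 2 libraries at 10 weeks and 2 at 11 weeks. The labels do not give how the Clk3 allele was made, in which cells it is lost, how long TAC lasted, the sex of the mice or whether every library is a separate animal.

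Cardiomyocytes read their mechanical load at the Z-disc, along titin, and at the intercalated disc that joins neighbouring cells. The muscle ankyrin repeat proteins bind titin and also enter the nucleus, and Ankrd1 is a long-used marker of pressure overload. Xin proteins crosslink actin at the intercalated disc, and Csrp3 (muscle LIM protein) and the FHL proteins link the sarcomere to signalling and transcription. Desmin ties Z-discs to each other, to the membrane and to the nucleus, and Enah (Mena) promotes the growth of actin filaments at the intercalated disc.

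Assigned reads per library ranged from 11385818 to 20369637. Clk3, the targeted gene, had 64.9, 54.9, 50.7 and 61.4 CPM (the standard depth-scaled read count, here with TMM-adjusted library sizes) in the Clk3 KO TAC libraries and 54.2 and 92.3 CPM in the WT TAC libraries 1 and 2. In sham hearts it had 62.8 to 67.4 CPM in Clk3 KO and 73.2 to 96.0 CPM in WT. The first WT TAC value lay among the Clk3 KO values. Exons of Clk3 overlap those of Edc3 on the other strand, so its reads are uncertain to that extent. The pseudogene Gm8730 had 57.4 to 67.1 CPM in all 8 Clk3 KO libraries, 66.8 CPM in WT TAC library 1 and 1.26 to 1.63 CPM in the other WT libraries. That library is therefore called the library labelled WT TAC 1, and results that change when it is left out are also given without it. The clock gene Arntl had 18.2 to 23.7 CPM in 5 TAC libraries and 9.02 CPM in Clk3 KO TAC library 3, against 4.40 to 9.38 CPM in 7 sham libraries and 24.3 CPM in Clk3 KO sham library 4, and its part in the results was not tested. The cardiac muscle genes Myh6 (9545 to 16362 CPM) and Myl2 (1496 to 2753 CPM) were high in every library, while the atrial markers Myl7 and Sln reached at most 1.01 and 0.546 CPM.

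Promoter sequence is shown to set the motifs of load-responsive factors that the start regions hold beside the TAC values of the genes. RefSeq windows of 250 bases before the annotated start (build GRCm38.p6) were found for 9 of the 10 genes, in 13 windows. They were searched on both strands for CATTCC (the MCAT motif of TEAD factors), the CArG box of serum response factor and the MEF2 motif. The other motifs searched were TGANTCA of AP-1 and AGATAA of the GATA factors. A search for TATAAA, the core promoter box, was added. Capitals mark the motif in the stretches below, numbered back from the RefSeq start. For Xirp2 that start was also the outermost start of the gene in the GENCODE annotation, while for Ankrd1, Fhl1 and Fhl2 it lay 255, 47896 and 33023 bases inside the GENCODE gene, so these stretches precede inner starts.
Ankrd1, chr19:36120037-36120066, minus strand, bases -222 to -193, MCAT read on the opposite strand: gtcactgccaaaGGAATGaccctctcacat
Ankrd1, chr19:36119950-36119979, minus strand, bases -135 to -106, MCAT read on the opposite strand: gacactaagtctGGAATGaaaattcacctg
Xirp2, chr2:67445852-67446001, plus strand, bases -150 to -1, AP-1 and then MEF2: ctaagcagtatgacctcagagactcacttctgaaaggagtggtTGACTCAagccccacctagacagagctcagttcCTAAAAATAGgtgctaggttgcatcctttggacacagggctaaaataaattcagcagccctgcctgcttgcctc
Fhl1, chrX:56779533-56779682, plus strand, bases -150 to -1, CArG: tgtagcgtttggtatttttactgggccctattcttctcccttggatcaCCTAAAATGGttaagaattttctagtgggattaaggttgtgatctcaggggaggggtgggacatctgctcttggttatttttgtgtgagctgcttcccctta
Fhl2, chr1:43163962-43164061, minus strand, bases -100 to -1, CArG: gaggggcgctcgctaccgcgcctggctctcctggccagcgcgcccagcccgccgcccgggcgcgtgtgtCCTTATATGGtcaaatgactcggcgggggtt

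MCAT occurred at bases -210 and -123 of Ankrd1 and at base -120 of 1 Ankrd23 window, and was present in 12.6% of all 32851 windows. CArG occurred at base -102 of 1 Fhl1 window and at bases -96 and -31 of the 2 Fhl2 windows that held it, against 1.47% of all windows. The MEF2 motif stood at base -74 of Xirp2 and base -31 of the distal Fhl2 window, against 2.92% of windows. AP-1 occurred at base -107 of Xirp2 alone among the 9 genes, against 6.75% of windows. GATA was found in windows of Ankrd1, Ankrd23 and Fhl2 (9.99% of windows) and TATAAA in those of Ankrd2, Fhl1 and Fhl2 (12.4%). In the distal Fhl2 window the MEF2 and TATAAA matches overlapped. The windows of Csrp3, Enah and Des held none of the 6 motifs. A match describes these letters and is neither a shown binding site nor a cause.

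In WT sham hearts, levels per kilobase of coding sequence ranked, from high to low, Csrp3, Fhl2, Ankrd1, Des, Xirp2, Fhl1, Xirp1, Enah, Ankrd23 and Ankrd2. Csrp3 had 1503 ± 145 coding CPM per kilobase, Fhl2 had 1177 ± 54.5, Ankrd1 had 869 ± 106 and Des had 725 ± 66.1 (SD, n = 4). Xirp2 followed with 122 ± 11.0 and Fhl1 with 55.0 ± 4.67 coding CPM per kilobase. Xirp1 had 34.9 ± 10.3 and Enah 29.4 ± 4.05 coding CPM per kilobase. The ranges of Ankrd1 and Des overlapped, as did those of Xirp1 and Enah, and the other neighbours in the order did not overlap. After TAC, Ankrd1 was at 1793 ± 229 coding CPM per kilobase in Clk3 KO (SD, n = 4) and at 2755 ± 38.6 in WT (SD, n = 2), which in WT was above Csrp3 at 2076 ± 139. Ankrd2 was close to the limit of detection, with 3 to 51 reads per library, and the place of Ankrd23 is not settled by its assigned reads, as described with that gene.

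Of the 10 genes, 5 rose after TAC in Clk3 KO hearts and 9 rose in WT hearts (edgeR quasi-likelihood test, Benjamini-Hochberg adjusted p under 0.05 over 15651 genes). The shares of all tested genes called higher were 6.73% in Clk3 KO and 6.91% in WT, and the shares called in either direction were 13.0% and 12.2%. The median log2 fold change of the 10 genes was 0.64 in Clk3 KO, beside -0.01 over all genes. In WT it was 1.22, beside -0.00 over all genes, and 0.74 without the library labelled WT TAC 1. All 10 estimates were above 0 in both genotypes, where 49.0% and 49.7% of all genes were. The 10 genes were chosen with earlier results of these data known, so the contrasts with all genes are no independent test. Ankrd2 passed the filter on low counts only through TAC libraries, so its part in the counts of this paragraph is no support for a rise. With scaling to cardiomyocyte markers, 77.7% of all calls in Clk3 KO and 67.9% of those in WT were higher, against 51.8% and 56.6% here. With that scaling 7 and 9 of the 10 genes rose, beside 1253 and 905 of the 15651 tested genes. The TAC and sham libraries did not overlap for 4 of the 10 genes in Clk3 KO, against 10.6% of all genes, and for 10 of 10 in WT, against 16.4%. Leaving out the library labelled WT TAC 1 leaves 1 WT TAC library, so calls of that fit are not counted here. Its WT estimates were 0.68 for Ankrd2, 0.51 for Fhl1 and 1.33 for Xirp2, beside 2.44, 1.28 and 1.99 with all libraries. Ankrd1 and Xirp1 did not fall, at 1.70 and 0.79. Without WT sham 2 the number of genes called in WT was 5. The Clk3 KO count was 3 without any 1 of Clk3 KO sham 1, sham 2, TAC 1 or TAC 2 and 8 without Clk3 KO TAC 3, and Ankrd1, Enah and Des were called in every fit that left out 1 library. Of all genes, 995, 797, 1283, 1267 and 1854 were called in Clk3 KO in those fits, in that order, beside 2033 with all libraries. Without WT sham 2, 1570 were called in WT, beside 1912 with all libraries. With the 10-week libraries alone, which matches age, the count was 1 gene (Ankrd1) in Clk3 KO and 5 in WT. Of 15391 genes tested there, 15 were called in Clk3 KO and 938 in WT, so calls fell over all genes. In bulk tissue, more RNA per expressing cell and more of those cells cannot be told apart, whether cardiomyocytes or other cells.

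**Figure D1:**
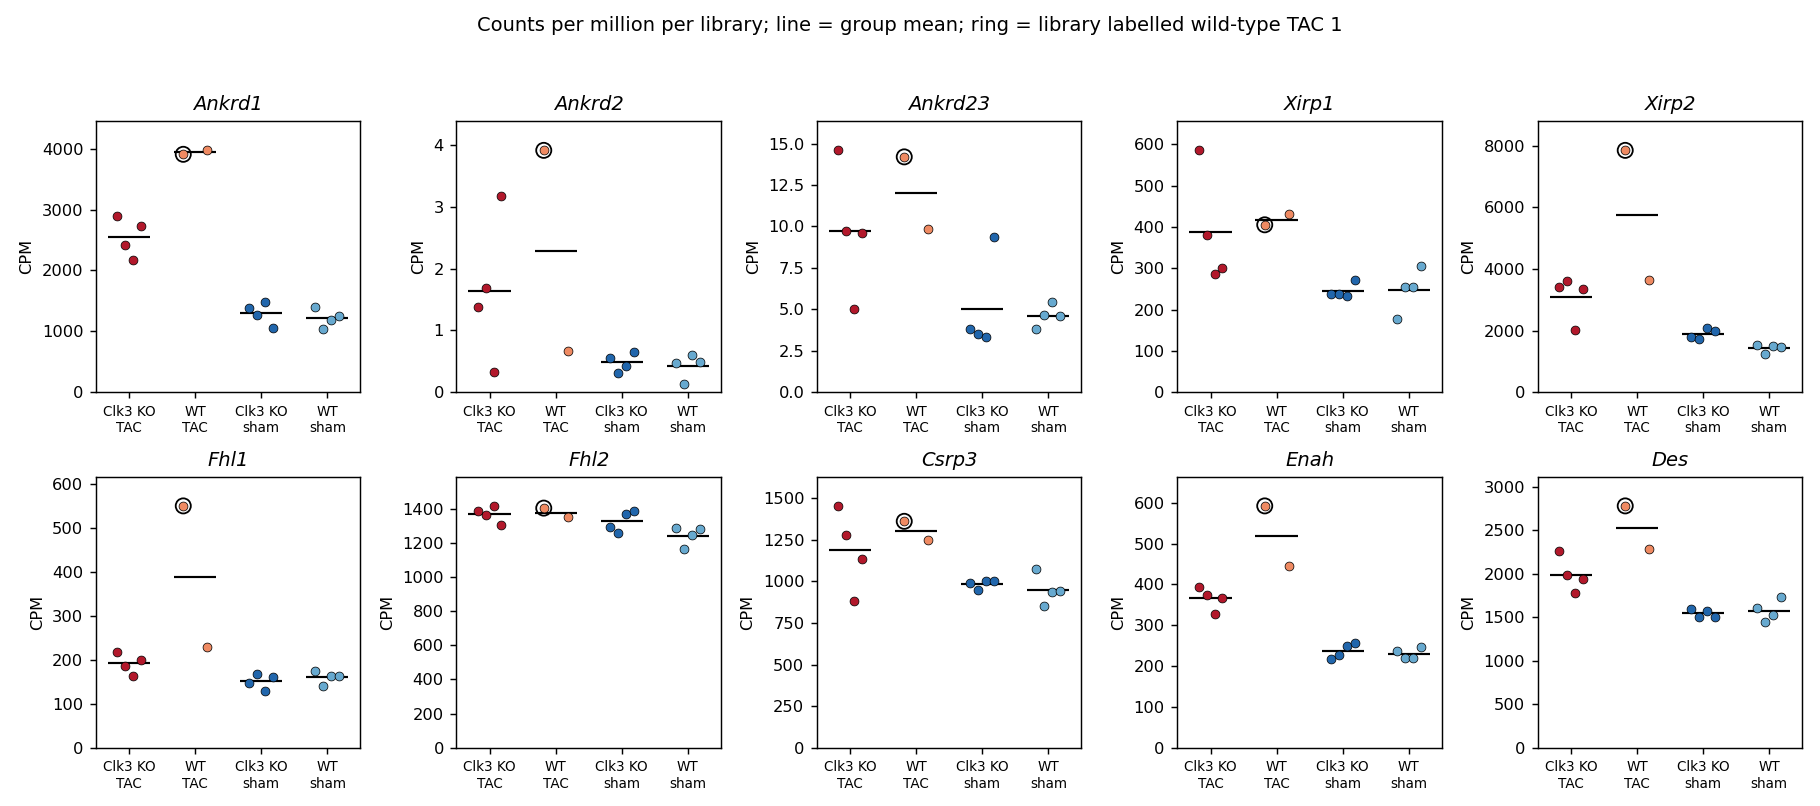
CPM of each gene in every library (points, y axis from 0), by group, with the group mean as a line and a ring round the library labelled WT TAC 1. Ankrd1 sits at 2176 to 2891 CPM in Clk3 KO TAC and 3908 to 3973 CPM in WT TAC, above both sham groups, while Fhl2 is nearly level across the groups.

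Ankrd1, also called CARP (chromosome 19, 36111961 to 36120099, minus strand, GRCm38), had 2891, 2424, 2176 and 2735 CPM in the Clk3 KO TAC libraries and 1385, 1275, 1478 and 1050.1 CPM in Clk3 KO sham. In WT it had 3908 and 3973 CPM after TAC and 1405, 1042, 1188 and 1253 CPM after sham. Every TAC library lay above every sham library, and the library labelled WT TAC 1 and WT TAC 2 each lay above all 4 Clk3 KO TAC libraries. The gene rose 1.97-fold in Clk3 KO (log2 0.98 ± 0.12 SE, edgeR adjusted p = 0.00044) and 3.22-fold in WT (log2 1.69 ± 0.13, adjusted p = 2.1e-06). Both calls held in all 14 fits that left out 1 library, and the WT change was 1.70 without the library labelled WT TAC 1. Ankrd1 also varied little between the 2 WT TAC libraries, whose ratio (library 1 over library 2) was 0.984.

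Ankrd2, a relative best known from slow skeletal muscle, was scarce throughout. It had 1.39, 1.69, 0.326 and 3.17 CPM in Clk3 KO TAC and 0.551, 0.306, 0.423 and 0.658 CPM in Clk3 KO sham. WT hearts had 3.91 and 0.667 CPM after TAC and 0.468, 0.140, 0.602 and 0.485 CPM after sham. The high TAC values came from single libraries, and Clk3 KO TAC library 3 lay within the sham range. The gene passed the filter on low counts only through TAC libraries, so its TAC estimates are not independent of that filter. The WT call (log2 2.44 ± 0.72, edgeR adjusted p = 0.037) was lost without the library labelled WT TAC 1 (log2 0.68, adjusted p = 0.80) and without any 1 of the 4 WT sham libraries (adjusted p from 0.052 to 0.088). In Clk3 KO the estimate of 1.72 ± 0.65 did not pass (adjusted p = 0.090), and it passed without Clk3 KO TAC 3 (adjusted p = 0.024).

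Ankrd23 (chromosome 1, 36530188 to 36536883, minus strand), known as DARP for its link to diabetes, had few reads of its own, and its exons overlap those of Gm42417, an annotated gene on the same strand. Only 46 to 185 reads per library were assigned to Ankrd23, while 5852 to 19950 were set aside by the authors' counting as ambiguous between genes. Assigned reads were thus 0.707% to 1.25% of the total, and the other 9 genes had at most 2 ambiguous reads in a library. On assigned reads the gene had 14.6, 9.73, 4.999 and 9.58 CPM in Clk3 KO TAC and 3.79, 3.52, 3.31 and 9.35 CPM in Clk3 KO sham. It had 14.2 and 9.85 CPM in WT TAC and 3.83, 4.67, 5.42 and 4.58 CPM in WT sham. Clk3 KO sham library 4 lay above Clk3 KO TAC library 3 and just below the other TAC libraries, and Clk3 KO TAC library 3 was within the sham range. The gene rose in WT (log2 1.37 ± 0.38, edgeR adjusted p = 0.027) and did not pass in Clk3 KO (0.94 ± 0.33, adjusted p = 0.071).

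Adding the ambiguous reads, a step chosen after they were seen, put Ankrd23 at 1059 ± 325 CPM in Clk3 KO TAC and 543 ± 139 CPM in Clk3 KO sham (SD, n = 4 each), and at 1322 ± 316 CPM in WT TAC (n = 2) and 516 ± 71.2 CPM in WT sham (n = 4). The estimates were then 0.96 ± 0.22 in Clk3 KO (edgeR adjusted p = 0.011) and 1.36 ± 0.25 in WT (adjusted p = 0.0025), so both passed and neither size moved by more than a fraction of its error. With the ambiguous reads but without the library labelled WT TAC 1, the WT estimate was 1.08 ± 0.31 and did not pass (adjusted p = 0.079). The WT call on assigned reads was lost without the library labelled WT TAC 1 (log2 1.08, adjusted p = 0.28) and narrowly without WT sham 1, 2 or 4 (adjusted p from 0.052 to 0.054). The Clk3 KO estimate passed without Clk3 KO sham 4 (adjusted p = 0.0056) and without Clk3 KO TAC 3 (adjusted p = 0.022). Which of the 2 genes gave the shared reads cannot be told apart by these counts, and Gm42417 had no read of its own in any library. Its ambiguous reads nearly equalled those of Ankrd23 and the gene Ankrd39 together, at 19984 beside 19990 in the library labelled WT TAC 1. Having no read of its own therefore does not show that Gm42417 is silent.

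**Figure D2:**
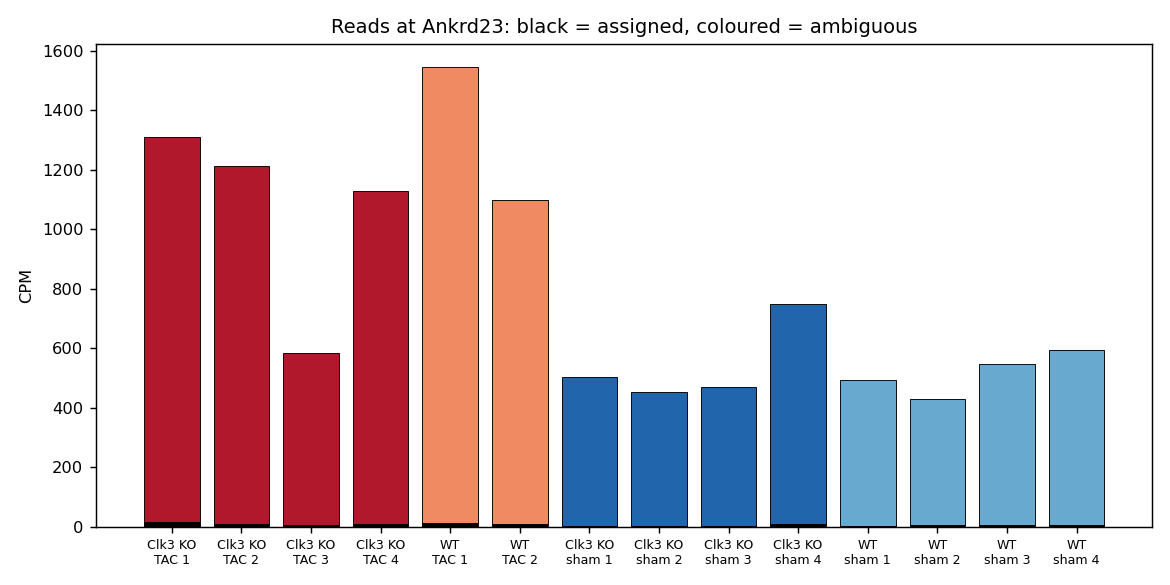
Reads at Ankrd23 in CPM (y axis from 0) for each of the 14 libraries, with assigned reads in black at the foot of each bar and ambiguous reads in colour above them. Assigned reads are at most 1.25% of each bar. Clk3 KO TAC library 3, at 585 CPM, is the TAC library within the sham range of 429 to 749 CPM.

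The Xin genes had similar log2 changes in Clk3 KO, at 0.66 ± 0.19 for Xirp1 and 0.71 ± 0.20 for Xirp2. In WT the log2 changes were 0.75 for Xirp1 and 1.99 for Xirp2. They were 0.79 and 1.33 without the library labelled WT TAC 1. Xirp1 (chromosome 9, 120013755 to 120023598, minus strand) encodes Xin, an actin-bundling protein of the intercalated disc. It had 586, 380, 286 and 300.0 CPM in Clk3 KO TAC and 237, 238, 233 and 271 CPM in Clk3 KO sham. It had 405 and 431 CPM in WT TAC and 178, 255, 255 and 306 CPM in WT sham. TAC and sham did not overlap in either genotype, but the Clk3 KO TAC libraries were widely spread, with library 1 highest. Xirp1 rose 1.58-fold in Clk3 KO (log2 0.66 ± 0.19, edgeR adjusted p = 0.034) and 1.68-fold in WT (0.75 ± 0.23, adjusted p = 0.041). The WT call held in 4 of 14 fits that left out 1 library, and the adjusted p was 0.17 without the library labelled WT TAC 1 and 0.12 without WT TAC 2. The Clk3 KO call held in 9 of 14, and was lost without Clk3 KO sham 1, 2 or 3 or TAC 1 or 2 (adjusted p from 0.064 to 0.095). Its log2 estimate was 0.40 without Clk3 KO TAC 1 and 0.64 to 0.67 in the other 4 of these fits.

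Xirp2 (chromosome 2, 67446002 to 67526614, plus strand) is the longer Xin gene and had far more reads. It had 3423, 3617.5, 2029.9 and 3343 CPM in Clk3 KO TAC and 1782, 1724, 2086 and 1971 CPM in Clk3 KO sham. WT hearts had 7846 and 3625 CPM after TAC and 1535, 1249, 1514 and 1473 CPM after sham. Clk3 KO TAC library 3 fell within the Clk3 KO sham range, and the library labelled WT TAC 1 was 2.16 times as high as WT TAC 2. The gene rose 1.64-fold in Clk3 KO (log2 0.71 ± 0.20, edgeR adjusted p = 0.028) and 3.98-fold in WT (1.99 ± 0.23, adjusted p = 6.8e-05). Without the library labelled WT TAC 1 the WT change was 2.51-fold and still passed (adjusted p = 0.0025). The Clk3 KO call was lost without Clk3 KO sham 1 or 2 or TAC 1, 2 or 4 (adjusted p from 0.068 to 0.088).

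The LIM genes differed among themselves. Fhl1 (chromosome X, 56731787 to 56793346, plus strand), a titin-binding protein, had 219, 186, 164 and 201 CPM in Clk3 KO TAC and 147, 168, 129 and 162 CPM in Clk3 KO sham. In WT it had 551 and 229 CPM after TAC and 175, 141, 164 and 162 CPM after sham. The library labelled WT TAC 1 stood far above all others, at 2.41 times WT TAC 2. The gene rose 2.43-fold in WT (log2 1.28 ± 0.22, edgeR adjusted p = 0.0014), but 1.42-fold without that library, where it did not pass (adjusted p = 0.086). In Clk3 KO the estimate was 0.34 ± 0.19 (adjusted p = 0.24), and it passed without either WT TAC library (adjusted p = 0.033 each), which enter only through the shared spread.

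Fhl2 (chromosome 1, 43123074 to 43196984, minus strand), the FHL protein most typical of heart, had 1386, 1363, 1415 and 1306 CPM in Clk3 KO TAC and 1290.2, 1257, 1371 and 1384 CPM in Clk3 KO sham. It had 1402.5 and 1351 CPM in WT TAC and 1283, 1160.3, 1242 and 1281 CPM in WT sham. The spread within each group was small, with an SD of 2.65% to 4.65% of the mean. Its estimates were 0.05 ± 0.06 in Clk3 KO (edgeR adjusted p = 0.65) and 0.15 ± 0.07 in WT (adjusted p = 0.21), and neither passed. Within 2 SE these allow log2 changes of -0.07 to 0.16 in Clk3 KO and 0.00 to 0.29 in WT.

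Csrp3 (chromosome 7, 48830398 to 48848033, minus strand), whose loss causes dilated cardiomyopathy in mice, had 1454, 1280.3, 881 and 1137 CPM in Clk3 KO TAC and 989.7, 951, 1004 and 1004 CPM in Clk3 KO sham. WT hearts had 1362 and 1247 CPM after TAC and 1076, 853, 937 and 939.6 CPM after sham. Clk3 KO TAC library 3 lay below all 4 of its sham libraries. The gene rose 1.37-fold in WT (log2 0.46 ± 0.14, edgeR adjusted p = 0.044), a call that held in 3 of 14 fits that left out 1 library, with adjusted p up to 0.29 without the library labelled WT TAC 1. In Clk3 KO the estimate of 0.27 ± 0.12 did not pass (adjusted p = 0.14), and without Clk3 KO TAC 3 it did (0.39 ± 0.09, adjusted p = 0.014).

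Enah and Des rose in both genotypes, also in every fit that left out 1 library. Enah (chromosome 1, 181896384 to 182019990, minus strand) had 395, 375, 327 and 366 CPM in Clk3 KO TAC and 219, 228, 249 and 257 CPM in Clk3 KO sham. In WT it had 593 and 445 CPM after TAC and 236, 219, 221 and 246 CPM after sham. The TAC and sham libraries were well apart in both genotypes, and the library labelled WT TAC 1 (593 CPM) and WT TAC 2 (445 CPM) each lay above all 4 Clk3 KO TAC libraries. Enah rose 1.54-fold in Clk3 KO (log2 0.62 ± 0.09, edgeR adjusted p = 0.0014) and 2.25-fold in WT (1.17 ± 0.11, adjusted p = 5.8e-06). Without the library labelled WT TAC 1 the WT change was 1.93-fold (adjusted p = 0.00018).

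Des (chromosome 1, 75360329 to 75368579, plus strand) had 2261, 1988, 1774 and 1938 CPM in Clk3 KO TAC and 1597, 1501, 1568 and 1507 CPM in Clk3 KO sham. It had 2779 and 2278 CPM in WT TAC and 1607, 1440.5, 1521 and 1735 CPM in WT sham. Every TAC library lay above every sham library. Des rose 1.29-fold in Clk3 KO (log2 0.37 ± 0.09, edgeR adjusted p = 0.014) and 1.60-fold in WT (0.68 ± 0.10, adjusted p = 0.00054), or 1.45-fold in WT without the library labelled WT TAC 1 (adjusted p = 0.026). An antisense gene overlaps exons of Des and another those of Xirp2, and the strand setting of the counting is not given in the sources used here.

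**Figure D3:**
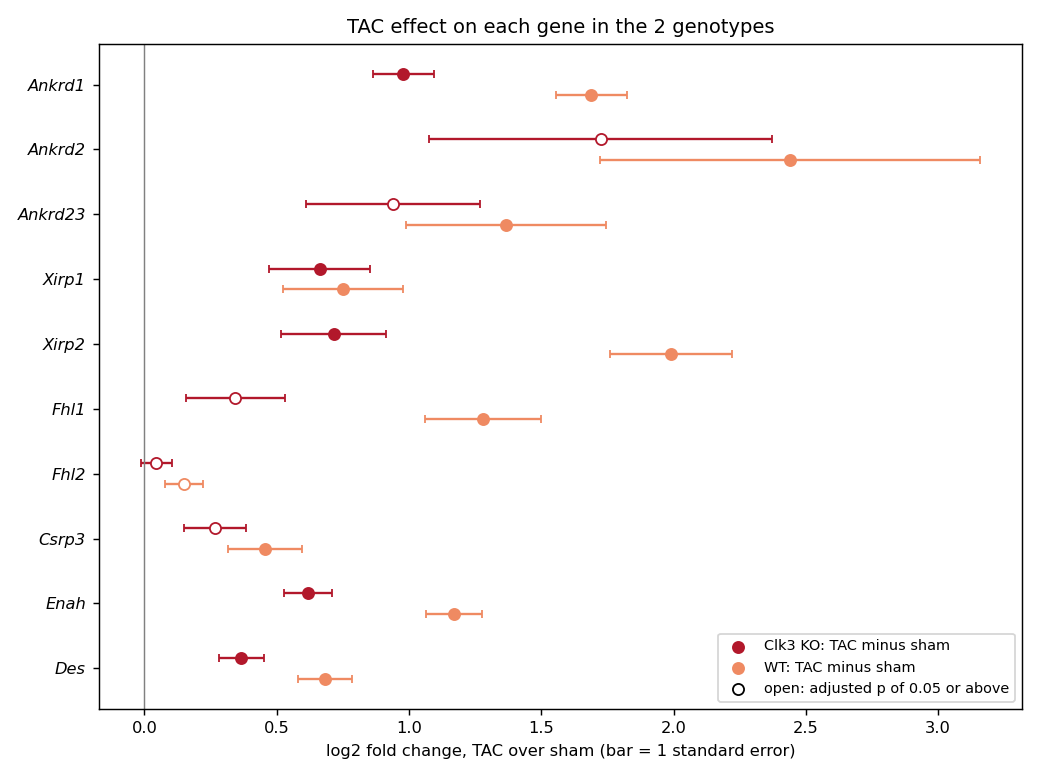
Log2 fold change of TAC over sham for each gene (x axis), in Clk3 KO above and in WT below on each row, with bars of 1 standard error and open points where the adjusted p is 0.05 or above. The estimates run from 0.05 to 1.72 in Clk3 KO and from 0.15 to 2.44 in WT.

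After TAC, 3 of the 10 genes were lower in Clk3 KO than in WT hearts, and none was higher. Across all genes 1.48% were called in this comparison and 1.11% were called lower. Fhl1 averaged 192 ± 23.4 CPM in Clk3 KO TAC (SD, n = 4) and 389.9 ± 228 CPM in WT TAC (n = 2), a log2 difference of -1.02 ± 0.22 (edgeR adjusted p = 0.033). Ankrd1 averaged 2557 ± 319 CPM in Clk3 KO TAC and 3941 ± 46.0 CPM in WT TAC (-0.62 ± 0.14, adjusted p = 0.034). Enah averaged 366 ± 28.2 CPM in Clk3 KO TAC and 519 ± 105 CPM in WT TAC (-0.50 ± 0.11, adjusted p = 0.030). Xirp2 (-0.89 ± 0.23, adjusted p = 0.074) and Des (-0.35 ± 0.10, adjusted p = 0.12) did not pass, although their groups did not overlap either. Groups were apart, with Clk3 KO lower, for 5 of the 10 genes and for 10.8% of all genes. For Xirp2 the gap between the highest Clk3 KO library (3617.5 CPM) and the lower WT library (3625 CPM) was slight.

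These 3 calls changed with the libraries left out, and so did the number of calls over all genes. Without the library labelled WT TAC 1, Ankrd1 was at -0.64, Enah at -0.28, Fhl1 at -0.25 and Xirp2 at -0.22. The Ankrd1 difference thus kept its size without that library, and the other 3 differences shrank by more than 1.5 times on the log2 scale. No gene of the 10 passed without Clk3 KO TAC 2 or without Clk3 KO TAC 3. Of all genes, 94 and 149 were called in those fits, beside 232 with all libraries. Without WT TAC 2, Xirp2 was at -1.34. Leaving out Clk3 KO sham 2 also ended the Ankrd1 call (edgeR adjusted p = 0.051), and 176 of all genes were called there. With 1 WT TAC library left, that library was taken to vary like those of the other groups, so only sizes are given here for such fits.

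**Figure D4:**
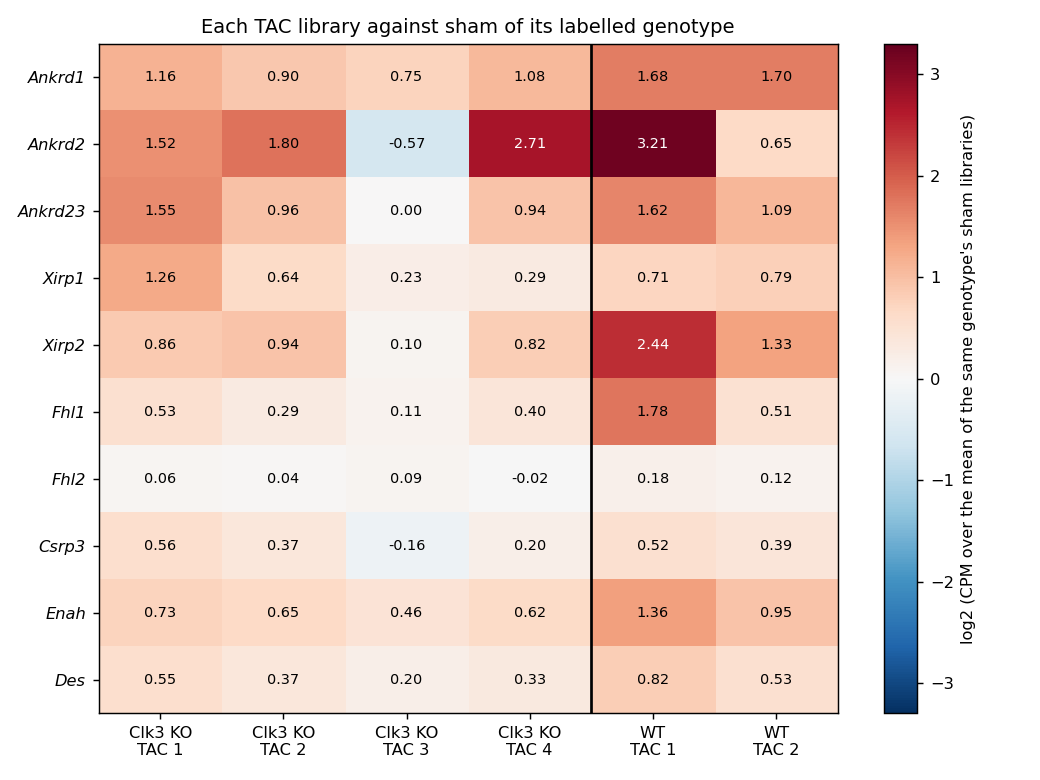
Log2 ratio of each TAC library (columns) to the mean of the sham libraries of its labelled genotype, for each gene (rows), with red for higher and blue for lower. Clk3 KO TAC library 3 has the lowest ratio of its group in 9 of 10 genes, and the library labelled WT TAC 1 exceeds WT TAC 2 most for Ankrd2, Fhl1 and Xirp2.

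The difference between the TAC effects of the 2 genotypes (the interaction) was called for none of the 10 genes by the edgeR test, where 0.0192% of all genes were called. At an unadjusted p under 0.05 it was reached by 5 of the 10 genes, beside 6.53% of all genes. DESeq2 called 1 of the 10, beside 37 of 19796 genes tested. All 10 estimates were below 0, where 50.8% of all genes were, with a median of -0.49. They share their libraries and are not 10 separate tests. Without the library labelled WT TAC 1 the median was -0.15, and 9 of the 10 were below 0. Ankrd2 was at 1.05 without the library labelled WT TAC 1, Ankrd23 at 0.07 without Clk3 KO sham 4, and Xirp1 at 0.04, 0.04 and 0.02 without WT sham 1, Clk3 KO TAC 3 or Clk3 KO TAC 4. The estimates with all libraries were -1.28 ± 0.31 for Xirp2 (edgeR adjusted p = 0.30), -0.71 ± 0.18 for Ankrd1 (0.32), -0.94 ± 0.29 for Fhl1 (0.50), -0.55 ± 0.14 for Enah (0.32) and -0.32 ± 0.13 for Des (0.71). Without WT TAC 2 the estimates were -1.73 for Xirp2, -1.44 for Fhl1, -0.74 for Enah and -0.45 for Des. Without the library labelled WT TAC 1, Xirp2 was at -0.61, Enah at -0.33, Fhl1 at -0.17 and Des at -0.16. Ankrd1 was at -0.70 and -0.72 in these 2 fits. Since both TAC effects enter the interaction together with the comparison of the TAC groups, these estimates are not independent of those above.

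In sham hearts no gene of the 10 differed between Clk3 KO and WT, where 0.888% of all genes were called. None of the 10 reached an unadjusted p under 0.05, and DESeq2 likewise called none. The estimates ran from -0.08 ± 0.19 for Fhl1 to 0.39 ± 0.20 for Xirp2 (edgeR adjusted p = 0.31). Xirp2 averaged 1890.5 ± 167 CPM in Clk3 KO sham and 1443 ± 132 CPM in WT sham (SD, n = 4 each), and it was the 1 gene whose 2 sham groups did not overlap, against 6.39% of all genes with Clk3 KO higher and apart. For Ankrd1 the interval of 2 SE ran from -0.14 to 0.31, for Enah from -0.13 to 0.23 and for Des from -0.20 to 0.14.

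The counts are split into coding and untranslated parts, which gives a readout that gene totals do not. Untranslated reads made up 30.3% ± 0.341 of Ankrd1 reads in Clk3 KO TAC and 29.2% ± 0.198 in Clk3 KO sham (SD, n = 4 each). In WT they were 30.5% ± 0.163 after TAC (n = 2) and 29.3% ± 0.481 after sham (n = 4). Enah, whose untranslated regions are long, had 65.5% ± 3.54 in Clk3 KO TAC and 67.9% ± 1.32 in Clk3 KO sham, while Xirp2, which is nearly all coding, had 3.40% ± 0.228 and 3.11% ± 0.102. Shares of Ankrd1 ran from 29.9% to 30.7% in the Clk3 KO TAC libraries and from 28.9% to 29.4% in Clk3 KO sham. In WT they ran from 30.4% to 30.6% after TAC and from 28.7% to 29.7% after sham. For how many of all tested genes the TAC and sham shares lay apart was not counted, so no separation is read from these ranges. None of the 8 genes with enough reads in both parts passed the limma test of that share in either TAC comparison, Ankrd1 included (0 at an unadjusted p under 0.05, lowest adjusted p = 0.75), where 0.0% of 7742 genes were called in Clk3 KO and 0.0129% in WT. Their log2 ratios of untranslated to coding reads moved by -0.15 to 0.13 in Clk3 KO and by -0.21 to 0.08 in WT. For Ankrd1 the change was 0.08 ± 0.08 (SE) in Clk3 KO and 0.08 ± 0.10 in WT. The test pools each gene's spread with that of all tested genes, also those with few reads. It therefore cannot decide whether an Ankrd1 shift of this size is present. Ankrd2 and Ankrd23 had too few reads for this test.

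Companion genes were read from lists set around the same structures. Beside their counts, 13.0% of all genes were called in Clk3 KO and 12.2% in WT. Called higher were 6.73% and 6.91%. Of 12 tested family relatives, 5 rose after TAC in Clk3 KO and 1 in WT, with medians of 0.41 and 0.33 beside -0.01 and -0.00 over all genes. Without the library labelled WT TAC 1 the WT median was 0.12. That fit leaves 1 WT TAC library, so its calls are not counted for these lists or for the cell markers below. Vim, the intermediate filament protein of non-muscle cells, rose in both, by 0.59 ± 0.10 in Clk3 KO (edgeR adjusted p = 0.0034) and 0.64 ± 0.12 in WT (0.0032). Csrp1 (0.46 ± 0.13, adjusted p = 0.031), Csrp2 (0.64 ± 0.18, adjusted p = 0.031) and the Ena/VASP relative Evl (0.37 ± 0.08, adjusted p = 0.0094) rose in Clk3 KO. Their WT estimates were 0.32, 0.64 and 0.18 and did not pass, and the Vim estimate of 0.58 in WT without the library labelled WT TAC 1 did not pass either (0.063). Csrp1 and Csrp2 are the LIM relatives of Csrp3 known from smooth muscle.

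Among 25 tested titin and Z-disc partners, 7 rose and 2 fell in Clk3 KO and 7 rose in WT, with medians of 0.19 and 0.26. Without the library labelled WT TAC 1 the WT median was 0.18. The WT log2 estimates were then 1.43 for Synpo2l, 0.94 for Flnc, 0.74 for Nrap and 0.27 for Pdlim5. Synpo2l, an actin-binding Z-disc protein, had 370 ± 113 CPM in Clk3 KO TAC and 185 ± 6.71 CPM in Clk3 KO sham, and 684 ± 226 CPM in WT TAC and 195 ± 11.2 CPM in WT sham. Its changes were 1.99-fold in Clk3 KO (edgeR adjusted p = 0.0045) and 3.51-fold in WT (adjusted p = 9.5e-05). Flnc, the muscle filamin that binds Xin proteins, rose 1.57-fold in Clk3 KO (adjusted p = 0.0071) and 1.96-fold in WT (0.0010). Nrap, an actin and vinculin binding protein, rose by 0.59 ± 0.11 on the log2 scale in Clk3 KO (0.0042) and by 0.77 ± 0.13 in WT (0.0012). The LIM protein Pdlim5 rose by 0.44 ± 0.09 in WT (0.0030), and its estimate of 0.19 ± 0.07 in Clk3 KO did not pass (0.089).

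Of the 25 intercalated disc and costamere genes, all tested, 1 rose and 3 fell in Clk3 KO. In WT 4 rose and 3 fell, and the medians were 0.07 in Clk3 KO and 0.06 in WT. Since 13.0% of all genes were called in Clk3 KO, the Clk3 KO count is near the share of all genes. When the library labelled WT TAC 1 was left out, the WT median was 0.08. The WT log2 estimates were then -0.64 for Dsc2, -0.59 for Dsg2, 0.39 for Zyx and 0.28 for Lpp. The desmosomal cadherins Dsc2 and Dsg2 fell in both genotypes with all libraries. Dsc2 had 59.4 ± 0.876 CPM in Clk3 KO TAC and 80.5 ± 6.24 CPM in Clk3 KO sham (log2 -0.44 ± 0.08, edgeR adjusted p = 0.0029), and 50.8 ± 0.0677 CPM in WT TAC and 79.5 ± 7.73 CPM in WT sham (-0.64 ± 0.10, adjusted p = 0.00049). Dsg2 changed by -0.62 ± 0.14 in Clk3 KO (0.011) and -0.81 ± 0.18 in WT (0.0073). Zyx, a focal adhesion LIM protein, rose by 0.45 ± 0.11 in Clk3 KO (0.019) and 0.44 ± 0.14 in WT (0.045), and its relative Lpp rose in WT by 0.39 ± 0.09 (0.0080).

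Among 20 targets and factors of the stretch response, 10 rose and 1 fell in Clk3 KO and 10 rose and 2 fell in WT, with medians of 0.31 and 0.40. Without the library labelled WT TAC 1 the WT median was 0.30, with Nppa at 11.1-fold, Myh7 at 15.1-fold, Tnc at 6.02-fold and Ccn2 at 3.72-fold. Nppa, which encodes atrial natriuretic peptide, had 844 ± 216 CPM in Clk3 KO TAC and 178 ± 49.7 CPM in Clk3 KO sham, and 1860.0 ± 73.8 CPM in WT TAC and 163 ± 51.2 CPM in WT sham. It rose 4.75-fold in Clk3 KO (edgeR adjusted p = 0.00030) and 11.4-fold in WT (1.9e-06), and it was the list's 1 gene called between the TAC groups (0.454 times the WT TAC level in Clk3 KO TAC, adjusted p = 0.048), a call lost without the library labelled WT TAC 1 (0.467 times, adjusted p = 0.22). The YAP/TEAD target Ccn2 rose 2.55-fold in Clk3 KO (0.0020) and 4.26-fold in WT (7.2e-05). Myh7, the slow myosin heavy chain, rose 4.30-fold (0.0049) and 13.7-fold (0.00012), and Tnc, the matrix protein tenascin C, 3.46-fold (0.0032) and 6.56-fold (8.8e-05). None of the 4 lists held a gene called in the interaction.

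The 5 genes whose pattern over the 14 libraries was most like Ankrd1, by the root mean square difference of log2 CPM centred on WT sham among 9563 genes of at least 10 CPM, were Uck2 (0.291), Dpysl3 (0.296), Synpo2l (0.300), Tgfb2 (0.317) and Hectd2os (0.321). Xirp2 (0.332) ranked 6 and Enah (0.344) ranked 9 in the same order, and Xirp1, Des, Fhl1, Csrp3 and Fhl2 ranked 101, 151, 161, 303 and 1710. Uck2 averaged 103 CPM in Clk3 KO TAC and 49.96 CPM in Clk3 KO sham, and 180.2 CPM in WT TAC and 48.8 CPM in WT sham.

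Markers of other cells moved beside these results. Of all genes, 6.73% in Clk3 KO and 6.91% in WT were called higher after TAC. Lower in Clk3 KO TAC than in WT TAC were 1.11%. Summed over 8 fibroblast markers, the levels were 1361 to 1665 CPM in Clk3 KO TAC, 2387 to 3229.5 CPM in WT TAC, 1005 to 1112 CPM in Clk3 KO sham and 1005 to 1368 CPM in WT sham. Of these 8 markers, 4 rose after TAC in Clk3 KO and 5 in WT, 4 were lower in Clk3 KO TAC than in WT TAC, and 1 was called in the interaction. Leaving out the library labelled WT TAC 1, the median log2 change of the 8 was 1.03 after TAC in WT. It was -0.59 between Clk3 KO TAC and WT TAC and -0.37 in the interaction. Macrophage and leukocyte markers rose for 3 of 7 tested in each genotype. Summed over 8, they had 301 to 369 CPM in Clk3 KO TAC and 368 to 442 CPM in WT TAC. In sham they had 219 to 300.3 CPM in Clk3 KO and 289.9 to 298 CPM in WT. Their median log2 change in WT was 0.31 without the library labelled WT TAC 1. The 12 cardiomyocyte markers summed to 46206 to 58186 CPM in Clk3 KO TAC and 46445 to 52400.3 CPM in WT TAC. In sham they summed to 52201 to 56069 CPM in Clk3 KO and 49009 to 54477 CPM in WT. After TAC 2 of them fell in each genotype. Their median log2 change in WT was 0.03 without the library labelled WT TAC 1. No smooth muscle or skeletal muscle marker was called in any comparison, 2 of 8 endothelial markers rose in Clk3 KO, and of the skeletal markers Myh4 had no read in any library. Of the 3 atrial markers tested 1 fell in Clk3 KO and 2 in WT, and 1 of 4 adipocyte markers rose in Clk3 KO. Without the library labelled WT TAC 1 the median log2 change of 4 atrial markers in WT was -1.14. The part of these cells in the results was not tested.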

How the data were processed

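Strand-specific poly(A) RNA libraries of mouse heart were prepared per the labels' protocols. Per the submitters' processing notes, STAR 2.4.2a, Picard 2.10.3 and bcl2fastq 2.17.1.14 were used with GRCm38. The deposited files hold whole-number counts per gene, split per the file headers into coding, untranslated and ambiguous reads; which program counted them, on which annotation and strand, is not given in the sources used here. No-feature reads (15.3% of reads on average) and ambiguous reads (1.52%) were left out. Symbols and positions came from GENCODE M21.

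Genes were filtered with filterByExpr (minimum count 10), scaled by TMM and tested with edgeR 4.0.16 (quasi-likelihood, R 4.3.3) in 1 fit of the 14 libraries with 1 coefficient per group, adjusting over 15651 genes at 0.05. CPM use TMM-scaled library sizes. Untranslated shares were tested with limma 3.58.1 on log2 ratios (pseudocount 0.5, mean of at least 50 in each part). Both steps were tested on simulated data. The text names all 10 members, up to 4 called genes per companion list and the 5 genes most like Ankrd1. Members and lists were chosen with earlier results of these data known. Alternatives were RLE factors, DESeq2 1.42.0, no filter, leaving out each library, 10-week libraries, 2 groups alone, coding counts, cardiomyocyte-marker scaling and, added after seeing the data, ambiguous reads (also without the library labelled WT TAC 1) and 2 left-out libraries. Since no label ties a library to its own animal, p-values cover only the spread among these libraries, possibly a technical one.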

Additional observations from a re-analysis of the deposited data

Results flagged for a closer look

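In Clk3 KO sham hearts, library 4 stood apart from the other 3 in 2 of the 10 genes. Ankrd23 had 9.35 CPM there on assigned reads and 3.31 to 3.79 CPM in the other 3 libraries. Xirp1 had 271 CPM there and 233 to 238 CPM in the others. In 30 groups of 4 libraries examined (10 genes, 3 groups), chance marks about 1 group in 20. The same library also had 24.3 CPM of Arntl.

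The reads set aside as ambiguous at Ankrd23, which enter no comparison of gene counts, reached 19950 in 1 library (the library labelled WT TAC 1), and were 5852 where fewest. The assigned reads never exceeded 185.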

How the results depend on the processing

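No paired analysis was possible because the replicate numbers follow accession order and pair no libraries. Leaving out 1 library at a time gave 4 to 9 of the 10 genes called for TAC in WT (512 to 2224 of all genes), 3 to 8 for TAC in Clk3 KO (797 to 2306), 0 to 0 between genotypes in sham (8 to 531), 0 to 4 between genotypes after TAC (46 to 359) and 0 to 3 in the interaction (0 to 32). With the 10-week libraries alone these counts were 5 (938), 1 (15), 0 (0), 0 (120) and 0 (0). With no filter on low counts 8 of the 10 genes were called for TAC in Clk3 KO (2179 of all genes) and 5 between genotypes after TAC (525). In the interaction 3 were called (66), and 387 of all genes were called in sham. DESeq2 called 5 between genotypes after TAC (467), 1 in the interaction (37) and 581 of all genes in sham. Fits of 2 groups alone called 7 of the 10 genes (1074 of all; Ankrd2 and Csrp3 lost) for TAC in WT, and 0 of the 10 genes (60 of all) between genotypes after TAC. Coding counts alone gave 7 of the 10 genes (1169 of all; Xirp1 and Csrp3 lost) for TAC in WT, 4 (1005 of all; Xirp1 lost) in Clk3 KO, 92 in sham, 1 of the 10 genes (145 of all) between genotypes after TAC and 0 of all genes in the interaction. Cardiomyocyte scaling moved the median of all genes by 0.12 (log2) for TAC in Clk3 KO and called 4 of all genes in sham and 0 in the interaction. Leaving out Clk3 KO sham 4 and TAC 3 together, chosen after seeing the data, gave 8 of the 10 genes (2096 of all) for TAC in Clk3 KO. It gave 1 (149 of all) between genotypes after TAC and 1 of all genes in the interaction. Adding ambiguous reads and leaving out the library labelled WT TAC 1, also chosen after seeing the data, gave 4 of the 10 genes (515 of all) for TAC in WT, 231 of all genes in sham, 0 of the 10 (50 of all) between genotypes after TAC and 1 of all genes in the interaction.

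Directions turned mainly for estimates near 0. Turned values were -0.011 for Fhl2 TAC in Clk3 KO (10 weeks); in sham, -0.012 for Ankrd2 (10 weeks), 0.064 for Xirp1 (coding), -0.020 for Csrp3 and -0.026 for Enah (cardiomyocyte scaling), and -0.41 for Ankrd23 and -0.0055 for Enah (both libraries out); after TAC, 0.011 for Xirp1 (both out), and 1.27 for Ankrd2 and 0.014 for Fhl2 (ambiguous reads, WT TAC 1 out); and in the interaction 0.043 for Xirp1 (10 weeks), 0.099 for Xirp1 and 0.30 for Ankrd23 (both out), and 1.06 for Ankrd2 (ambiguous reads, WT TAC 1 out). With 1 library left out, the ranges that crossed 0 were -0.11 to 0.46 for Ankrd2, -0.41 to 0.26 for Ankrd23, -0.15 to 0.082 for Xirp1, -0.0055 to 0.086 for Enah and -0.074 to 0.0075 for Des in sham. After TAC they were -1.27 to 1.27 for Ankrd2, -0.38 to 0.010 for Xirp1 and -0.038 to 0.018 for Fhl2. In the interaction they were -1.50 to 1.05 for Ankrd2, -0.68 to 0.075 for Ankrd23 and -0.35 to 0.044 for Xirp1. Of 1187 estimates for the 10 genes, leaving out 1 library ended 52 calls, made 11 and turned 15 directions, and the other settings ended 31, made 23 and turned 14. The cause was not tested. Ankrd2 gave no value in the Clk3 KO TAC and sham fits of 2 groups alone. Depth limits Ankrd2 (3 to 51 reads) and assigned Ankrd23.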
